A study of Mus musculus with 3 samples.

Results

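The 40 genes described here encode RNA-binding proteins that control splicing, stability and translation of mRNA in neurons, and they were chosen by name from 32531 gene rows counted in every library. They fall into 14 families. Of the members, 16 are known as neuronal or brain-enriched paralogs and 9 are taken as their generally expressed paralogs, Srrm1 by its name. The other 15 belong to families that are not split in this way. All 40 were found under their symbols in the 3 count tables. Translating ribosome affinity purification (TRAP) uses antibodies against EGFP to isolate ribosomes whose L10a protein carries that tag, together with their mRNA, which is then sequenced. It was applied to the deep nuclei of the cerebellum, the output nuclei of that structure, in Htr6-TRAP mice of line NIDA113 on a C57BL/6J background, which the series describes as adult. The single group is made of 3 immunopurified libraries, called replicates 1, 2 and 3, and the tagged ribosomes come from whichever cells express the transgene named for the serotonin receptor gene Htr6. Separate animals are not named for the libraries, so the spread between them may be partly technical. Unpurified tissue RNA was not analysed here, and the levels given are those within the purified RNA, with no measure of enrichment.

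RNA-binding proteins of these families recognise short motifs in pre-mRNA or in 3' untranslated regions, and their paralogs often bind the same motif while being made in different cells. During neuronal differentiation the general repressor of neuronal exons, Ptbp1, gives way to Ptbp2, while Elavl, Rbfox, Nova, Celf and Srrm4 proteins switch on neuron-specific exons. In the cerebellum several of them are known as autoantigens of paraneoplastic neurological disease or as stains for neurons. Counts per gene measure the abundance of these mRNAs on ribosomes and neither their splice forms nor the proteins.

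Comparing paralogs requires that reads can be told apart, and the most similar stretches of coding sequence are shown for that reason. Among the 50 pairs of members of 1 family, the longest run of identical bases shared by both coding sequences was 12 to 44 bases long, with a median of 17. No member shared any stretch of 50 identical bases with a member of its own family, while 22 of 40 shared none with any other annotated gene. In the stretches below, taken from GENCODE transcripts and read 5′ to 3′, capitals mark the shared run and lower case the 20 bases on either side. Positions count from the first base of the coding sequence.
Msi1, bases 395 to 478: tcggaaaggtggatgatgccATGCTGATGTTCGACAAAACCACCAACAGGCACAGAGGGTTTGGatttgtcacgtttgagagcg
Msi2, bases 398 to 481: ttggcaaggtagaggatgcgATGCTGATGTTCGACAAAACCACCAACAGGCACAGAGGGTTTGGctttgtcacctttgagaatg
Elavl3, bases 959 to 1027: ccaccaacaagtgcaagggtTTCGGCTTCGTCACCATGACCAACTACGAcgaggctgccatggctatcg
Elavl4, bases 1013 to 1081: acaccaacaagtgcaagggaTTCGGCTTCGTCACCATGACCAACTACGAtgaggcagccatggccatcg
Khdrbs2, bases 188 to 256: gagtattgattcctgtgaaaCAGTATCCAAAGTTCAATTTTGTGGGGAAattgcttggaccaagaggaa
Khdrbs1, bases 476 to 544: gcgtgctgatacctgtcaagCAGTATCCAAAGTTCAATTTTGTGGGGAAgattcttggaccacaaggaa
Ptbp2, bases 770 to 823: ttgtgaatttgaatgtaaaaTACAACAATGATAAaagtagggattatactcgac
Ptbp1, bases 776 to 829: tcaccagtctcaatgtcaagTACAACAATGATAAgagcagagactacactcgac
The run was 44 bases in Msi1 and Msi2, the longest of the 50 pairs, 29 bases in Elavl3 and Elavl4 as well as in Khdrbs2 and Khdrbs1, and 14 bases in Ptbp2 and Ptbp1. Overlap with other genes affects 3 members more than the rest, since over 10% of their exon bases lie within exons of genes on the opposite strand. These are Nova2 (31.7%, Gm26821), Tardbp (23.3%, Masp2) and Ptbp1 (20.7%, Plppr3, E130317F20Rik and Gm17134). No source used here says whether strand was used in counting, so reads in those bases may have been counted to either gene or to none.

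The libraries held 7695397, 8842058 and 7622010 gene counts. Levels are given as CPM, counts scaled to the effective size of each library. A gene with 0 counts may, by counting error alone, have had a level as high as 0.397 CPM in replicate 1, 0.340 CPM in replicate 2 and 0.385 CPM in replicate 3, which corresponds to 3 counts. The summed level of 6 pan-neuronal markers was 21058, 19221 and 14594 CPM in replicates 1, 2 and 3, with Snap25 highest at 14585 ± 2875 CPM and Tubb3 lowest at 42.9 ± 15.3 CPM (SD, n = 3). That of 6 markers of glutamatergic neurons of the deep nuclei was 735, 522 and 478 CPM, below the sums of granule cell, Purkinje cell, oligodendrocyte and astrocyte markers. Single markers of that list ran from 302 ± 80.2 CPM for Slc17a6, a vesicular glutamate transporter, to 10.4 ± 8.18 CPM for Tbr1 and 6.21 ± 2.31 CPM for Lhx9, transcription factor genes of developing nuclear neurons. Markers of other cell types were present as well, at uneven levels within a list. Purkinje cell markers ran from 3669 ± 451 CPM for Itpr1 to 27.6 ± 12.8 CPM for Pcp2. Those of granule cells ran from 1077 ± 170 CPM for Cbln3 to 243 ± 36.5 CPM for Gabra6. The summed level of 5 granule cell markers was 2732, 3026 and 3005 CPM in replicates 1, 2 and 3, that of 5 Purkinje cell markers 5639, 7577 and 6951 CPM, that of 5 oligodendrocyte markers 1752, 1833 and 1425 CPM and that of 6 astrocyte markers 2429, 2457 and 2789.9 CPM. Microglial markers summed to 31.8, 31.6 and 15.3 CPM, with C1qa, Aif1 and Trem2 at 0 in every library, and vascular markers to 44.6, 92.7 and 57.0 CPM, with Cldn5 at 0. Which of these cells a member's reads came from was not tested, and in bulk RNA a level cannot tell fewer cells from less RNA per cell.

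The RNA-binding protein genes were abundant as a group. Of 40 members, 36 had a mean of at least 10 CPM and 27 at least 100 CPM, against 58.2% and 14.7% of the 14036 genes with at least 10 counts in total. The median member level was 7.40 ± 0.15 on the log2(CPM + 1) scale, against 3.81 ± 0.031 over those genes (SD over 3 libraries). CPM favours long genes, and the members have a median exon length of 7638 bases against 4715 for expressed genes with a known length. Per length, the median member was still at 18.1 RPKM (CPM per kilobase of exon), against 3.94 RPKM over the 12562 expressed genes with a length, and 35 of 40 members lay at or above that median of expressed genes. All members but Mbnl3 and Khdrbs2 had at least 3 counts in every library. By RPKM, Srrm2, Rbfox1, Cpeb4, Msi2 and Celf4 were the 5 highest members, and Mbnl3, Khdrbs2, Celf6, Msi1 and Khdrbs3 the lowest. The 16 neuronal paralogs spanned 0.498 to 122 RPKM (median 15.4), the 9 general paralogs 9.47 to 247 RPKM (median 17.8) and the members of unsplit families 0.0793 to 72.6 RPKM (median 18.5).

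**Figure D1:**
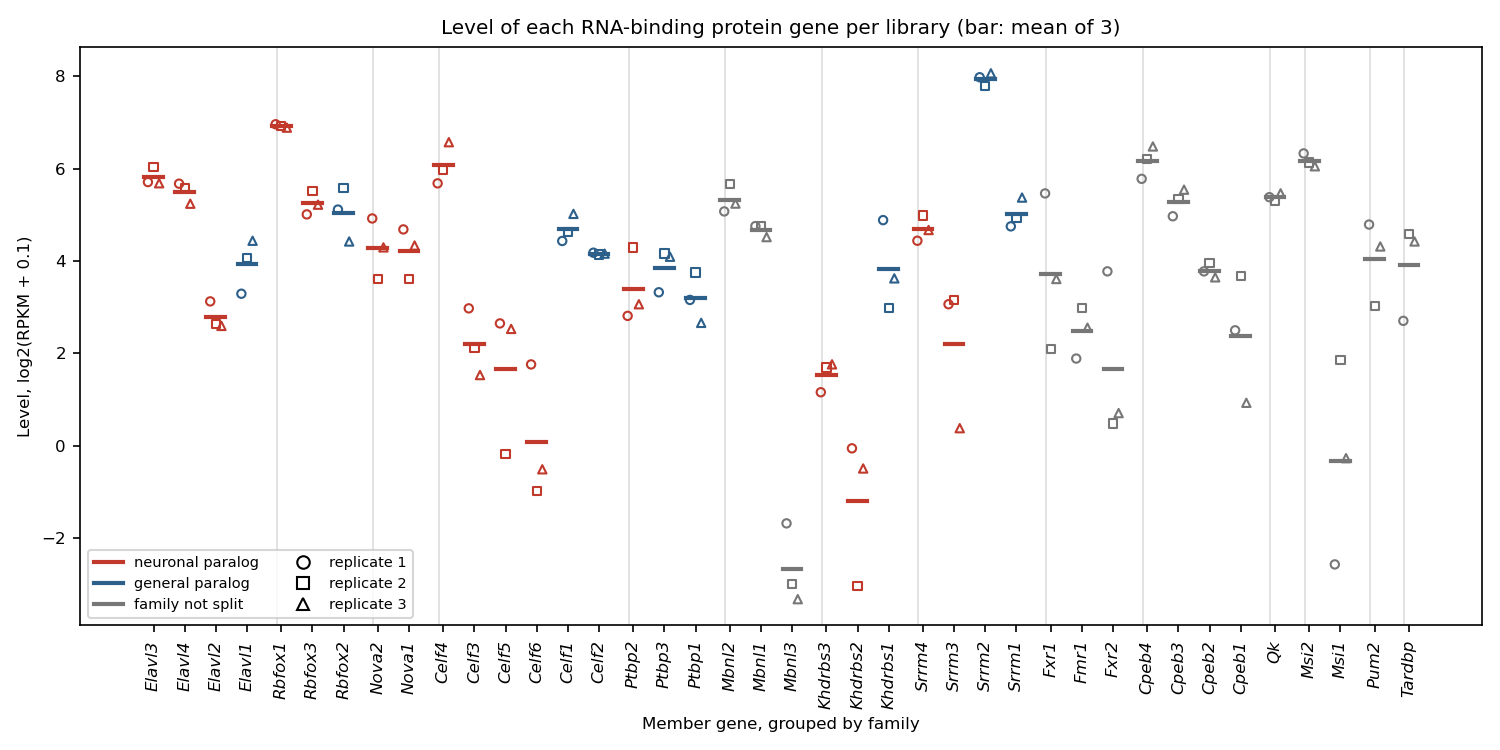
Level of each of the 40 members on the log2(RPKM + 0.1) scale, grouped by family, with 1 symbol per library and a bar at the mean of 3; red marks neuronal paralogs, blue general paralogs and grey families that are not split. Srrm2 stands highest at 247 RPKM in the mean, and the libraries lie close together for Rbfox1, Celf2 and Qk but far apart for Fxr1, Khdrbs2 and Msi1.

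Whether a family was represented by its neuronal or by its general paralog was examined within each library, on the log2(RPKM + 0.1) scale. Of 21 such pairs, the neuronal member was higher in all 3 libraries in 5 and lower in all 3 in 12, while 4 had no common sign. The 5 were Elavl3 and Elavl4 over Elavl1, Rbfox1 over Rbfox2, and Celf4 over both Celf1 and Celf2. The 12 comprised Elavl2 against Elavl1, Celf3, Celf5 and Celf6 against Celf1 and Celf2, Khdrbs2 and Khdrbs3 against Khdrbs1, Srrm3 against Srrm1 and Srrm2, and Srrm4 against Srrm2. Genes recur across the pairs, each neuronal CELF gene being set against both Celf1 and Celf2, so the pairs are not independent. In all, 28 pairs were compared, 7 of them within families that have no such split or between paralogs of the same class. With 3 libraries, the smallest p of the exact sign-flip permutation test (two-sided) is 0.25, which every pair of common sign reached, so each difference is set against its SD. The result depends on which length is used: the neuronal member was higher in every library in 8 of the 21 pairs with the transcript that has the longest coding sequence, and in 4 as CPM.

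**Figure D2:**
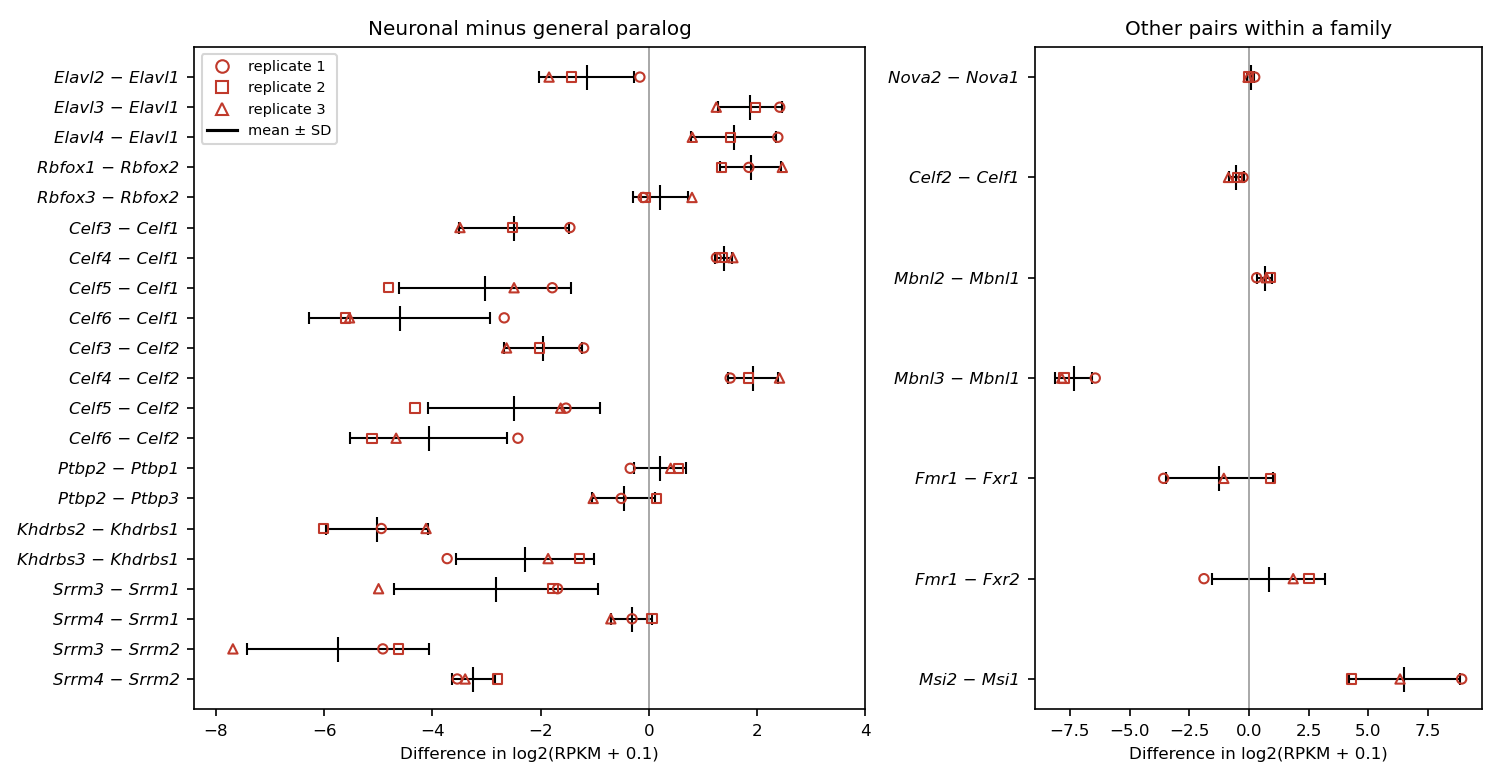
Differences between paralogs within each library on the log2(RPKM + 0.1) scale, with 1 symbol per library, a tick at the mean and whiskers of 1 SD; values right of 0 mean that the first-named gene was higher. Celf4, Elavl3, Elavl4 and Rbfox1 lie right of 0 in all 3 libraries, and Khdrbs2 and Srrm3 furthest left among the neuronal paralogs.

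The neuronal ELAV genes Elavl3 and Elavl4 led their family. These proteins bind AU-rich stretches and stabilise mRNA, Elavl1 in nearly all cells and the other members mainly in neurons. Elavl3 (chr9:22015005-22052023, minus strand, coordinates being of build mm10) was at 360.0, 451 and 354 CPM in replicates 1, 2 and 3, a spread of 1.28-fold, and Elavl4 was at 275, 257 and 203 CPM. Elavl1 was at 100.5, 173 and 224 CPM, lowest in replicate 1 and highest in replicate 3. Per length, Elavl3 had 52.2, 65.5 and 51.3 RPKM and Elavl1 9.70, 16.7 and 21.6 RPKM, so that the libraries of both genes did not overlap. Elavl3 exceeded Elavl1 by 1.88 ± 0.59 in log2 RPKM (SD, n = 3; 3.67-fold; higher in 3 of 3 libraries; 1.12 ± 0.59 per coding length), and Elavl4 exceeded it by 1.57 ± 0.79, also in 3 of 3 libraries. The differences 2.38, 1.51 and 0.80 of Elavl4 minus Elavl1 show the smallest gap in replicate 3. The Elavl4 difference was 0.63 ± 0.80 as CPM and 0.39 ± 0.80 per coding length, both within the SD. Elavl2 was the lowest of the family at 71.8, 50.7 and 49.4 CPM, and the log2 RPKM of Elavl2 minus Elavl1 was -1.15 ± 0.88, negative in 3 of 3 libraries but 0.68 ± 0.88 with the transcript of the longest coding sequence.

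Rbfox1 was the most reproducible member of the neuronal paralogs and the highest per length. Rbfox proteins bind GCAUG motifs beside exons, Rbfox1 in neurons and muscle and Rbfox2 in many tissues, while Rbfox3 is the antigen NeuN used to stain neuronal nuclei. Rbfox1 (chr16:5885355-7411526, plus strand) had 548, 536 and 521 CPM, 1.05-fold between the highest and the lowest library, and 125, 122 and 118 RPKM. Rbfox2 had 281, 391 and 174 CPM and 34.6, 48.0 and 21.4 RPKM, highest in replicate 2 and lowest in replicate 3. In every library Rbfox1 lay above both paralogs, and it exceeded Rbfox2 by 1.88 ± 0.56 in log2 RPKM (3.69-fold; SD, n = 3). The size of that difference depended on the scaling, with 0.9998 ± 0.57 as CPM, 1.11 ± 0.57 per coding length and 3.29 ± 0.56 with the transcript of the longest coding sequence. Rbfox3 had 187, 267 and 216 CPM and 32.1, 45.9 and 37.2 RPKM, a range that lies within that of Rbfox2. Rbfox3 minus Rbfox2 was 0.21 ± 0.51, with Rbfox3 above only in replicate 3 (exact permutation p = 1). It was -0.085 without replicate 3, -0.27 as CPM and -0.011 per coding length.

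Both Nova genes were at similar levels per length and had the same order of libraries. Nova proteins bind YCAY motifs in brain pre-mRNA and are the antigens of a paraneoplastic ataxia, with Nova1 known for the hindbrain and spinal cord and Nova2 for the forebrain. Nova1 (chr12:46694517-46818929, minus strand) had 224, 106 and 176 CPM, and Nova2 (chr7:18925888-18965319, plus strand) had 253, 101 and 164 CPM. Both were highest in replicate 1 and lowest in replicate 2, with 2.11-fold and 2.50-fold between those libraries. Summed markers of GABAergic and glycinergic neurons were also lowest in replicate 2 (706, 397 and 889.8 CPM), but highest in replicate 3. The pan-neuronal and deep nuclei sums were lowest in replicate 3. Fxr1, Khdrbs1 and Pum2 were, like the Nova genes, highest in replicate 1 and lowest in replicate 2. The part of any cell type in the Nova values was not tested. The difference of Nova2 minus Nova1 was 0.063 ± 0.15 in log2 RPKM, smaller than its SD, with values of 0.24, -0.01 and -0.04 in the libraries. It was -0.025 without replicate 1, -0.00050 as CPM, -0.23 with the transcript of the longest coding sequence and -0.13 per coding length. Nova2 counts are limited by the overlap with Gm26821 given above.

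Of the neuronal CELF genes, only Celf4 was above the general members in every library. CELF proteins bind GU-rich and CUG sequences, and act on alternative splicing and mRNA decay. Celf4, a neuronal member known from seizures in mutant mice, had 439.9, 541 and 817 CPM and 51.3, 63.1 and 95.1 RPKM, lowest in replicate 1 and highest in replicate 3. Celf1, the general CUG-binding member, had 182, 209 and 273 CPM and 21.5, 24.7 and 32.4 RPKM, in the same order of libraries. The difference of Celf4 minus Celf1 therefore varied little and was 1.38 ± 0.15 in log2 RPKM (2.61-fold; SD, n = 3), or 2.37 ± 0.16 with the transcript of the longest coding sequence. Celf2 was the least variable of all members at 467, 453 and 460.2 CPM, 1.03-fold between its extremes. Its gene model holds 25884 exon bases, the most of any member, and its level per length was 17.8 ± 0.261 RPKM. Celf4 minus Celf2 was 1.92 ± 0.46 in log2 RPKM but 0.33 ± 0.46 as CPM and 0.39 ± 0.46 per coding length, both within the SD, and the sign of Celf2 minus Celf1, -0.54 ± 0.31 in log2 RPKM, turned to 1.08 as CPM, 0.91 with the transcript of the longest coding sequence and 1.04 per coding length.

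The remaining neuronal CELF genes were low and uneven. Celf3 had 42.5, 23.2 and 15.3 CPM, Celf5 had 41.2, 5.22 and 37.9 CPM and Celf6 had 11.9, 1.48 and 2.18 CPM. Replicate 1 held the highest level of all 3 genes, and replicate 2 the lowest of Celf5 and Celf6. In log2 RPKM, Celf3 minus Celf1 was -2.49 ± 1.02 and Celf3 minus Celf2 was -1.95 ± 0.71. Celf5 minus Celf1 was -3.03 ± 1.58, with -3.65 without replicate 1 and -2.14 without replicate 2, and Celf5 minus Celf2 was -2.49 ± 1.58, with -1.58 without replicate 2. Celf6 minus Celf1 was -4.60 ± 1.67, with -5.57 without replicate 1, and Celf6 minus Celf2 was -4.07 ± 1.45, with -4.89 without that library. All 6 differences were below 0 in 3 of 3 libraries and larger than their SD. Those against Celf2 depend on its long exon model: as CPM, Celf3 minus Celf2 was -4.21 ± 0.73, Celf5 minus Celf2 was -4.50 ± 1.65 and Celf6 minus Celf2 was -7.04 ± 1.54.

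The place of Ptbp2 among the PTBP genes depended on the length used. Per kilobase of all exons it had no fixed place and Ptbp3 lay above Ptbp1 in every library, whereas by 3 other scalings Ptbp2 lay above Ptbp1 by more than its SD. These proteins bind pyrimidine-rich tracts. Ptbp1 represses neuronal exons outside neurons, Ptbp2 takes its place in young neurons, and Ptbp3 is a further general paralog. Ptbp2 (chr3:119718742-119784466, minus strand) had 63.5, 179 and 75.8 CPM, high in replicate 2 and low in the others, and 6.93, 19.5 and 8.27 RPKM. Ptbp1 (chr10:79854427-79864771, plus strand) had 41.8, 63.3 and 29.5 CPM and 8.83, 13.4 and 6.23 RPKM, and it was also highest in replicate 2. Ptbp2 minus Ptbp1 was 0.20 ± 0.48 in log2 RPKM, within its SD, with Ptbp1 above only in replicate 1 (exact permutation p = 0.5). It was 1.15 ± 0.48 as CPM, 1.04 ± 0.48 with the transcript of the longest coding sequence and 1.21 ± 0.48 per coding length. The model of all exons holds 9175 bases for Ptbp2 and 4740 bases for Ptbp1. Ptbp3 had 74.1, 133 and 127 CPM and 9.91, 17.8 and 17.0 RPKM, and Ptbp2 minus Ptbp3 was -0.47 ± 0.58, within its SD, but 0.80 ± 0.59 with the transcript of the longest coding sequence. Ptbp1 counts are limited by the overlap with opposite-strand genes given above.

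The muscleblind genes Mbnl1 and Mbnl2 were abundant and Mbnl3 was at the limit of detection. Muscleblind proteins bind YGCY motifs and are trapped by the expanded CUG repeats of myotonic dystrophy, with Mbnl2 known as the main member in brain. Mbnl2 had 403, 606 and 453 CPM and 33.6, 50.6 and 37.8 RPKM, Mbnl1 504, 505 and 427 CPM and 26.9, 27.0 and 22.8 RPKM. Mbnl2 minus Mbnl1 was 0.65 ± 0.30 in log2 RPKM and higher in 3 of 3 libraries. The difference was within its SD as CPM (0.0085 ± 0.30) and per coding length (0.016 ± 0.30). The same held with the transcript of the longest coding sequence (0.19 ± 0.30). The model of all exons holds 18717 bases for Mbnl1 and 11993 bases for Mbnl2. Mbnl3, known from early development and regenerating muscle, had 14, 2 and 0 counts, so that replicates 2 and 3 were below the limit of 3 counts.

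In the KHDRBS family the general gene was the highest in every library. Khdrbs1 binds UAAA-rich RNA in many tissues, and Khdrbs2 and Khdrbs3 are brain paralogs known for the splicing of neurexin mRNA. Khdrbs2 had 67, 2 and 49 counts and Khdrbs3 59, 101 and 94 counts, or 7.81, 11.5 and 12.1 CPM. Khdrbs1 had 189, 49.9 and 78.5 CPM, and the level in replicate 1 was 3.79 times that in replicate 2. Khdrbs2 minus Khdrbs1 was -5.02 ± 0.95 in log2 RPKM, a size that depends on the pseudocount because Khdrbs2 was under 3 counts in replicate 2. It was -3.39 with a pseudocount of 1 and -5.77 with 0.01. Khdrbs3 minus Khdrbs1 was -2.29 ± 1.28 and -1.57 without replicate 1, the library with the highest Khdrbs1 level.

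Srrm2 was the highest member by CPM and per kilobase of all exons, but its rank depends on the length used. With the transcript of the longest coding sequence, Msi2 and Rbfox1 lay above it in the mean. That transcript holds 8864 bases for Srrm2, 1855 for Msi2 and 1407 for Rbfox1. Srrm1 and Srrm2 are serine- and arginine-rich proteins that associate with the spliceosome, Srrm2 as a scaffold of nuclear speckles. Srrm1 is grouped here by name. Its longest coding runs shared with Srrm3 and Srrm4 are AAG repeats of 14 and 15 bases. Srrm3 and Srrm4 promote the inclusion of microexons in neuronal mRNA. Srrm4 had 187, 274 and 220.3 CPM and 21.6, 31.6 and 25.4 RPKM, with all libraries within 1.46-fold. Srrm3 had 53.0, 56.5 and 7.70 CPM, similar in replicates 1 and 2 and 7.34-fold lower in replicate 3 than in replicate 2. Srrm2 had 3241, 2829.5 and 3439 CPM and 252, 220.3 and 268 RPKM, and Srrm1 had 196, 222 and 302 CPM and 26.8, 30.4 and 41.4 RPKM. In log2 RPKM, Srrm4 minus Srrm2 was -3.24 ± 0.39, lower in 3 of 3 libraries, and -1.66 ± 0.39 per coding length. Srrm4 minus Srrm1 was -0.32 ± 0.38, within its SD (exact permutation p = 0.5). It was 0.53 ± 0.38 per coding length and -1.31 ± 0.38 with the transcript of the longest coding sequence, so that the order of both genes depends on the length. Srrm3 minus Srrm1 was -2.82 ± 1.89, or -1.73 without replicate 3, and Srrm3 minus Srrm2 was -5.74 ± 1.69, or -4.77 without replicate 3.

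Summed over the paralogs of a family, neuronal members made up most of the RPKM in ELAV, RBFOX and CELF. The neuronal share of the ELAV sum was 92.0%, 87.7% and 81.5% in replicates 1, 2 and 3, that of the RBFOX sum 81.9%, 77.7% and 87.9% and that of the CELF sum 63.4%, 61.9% and 67.5%. The pan-neuronal and deep nuclei marker sums were likewise highest in replicate 1 and lowest in replicate 3, as the ELAV share was. The RBFOX and CELF shares were instead highest in replicate 3. Snap25 made up most of the pan-neuronal sum, with 16989.5, 15364 and 11400 CPM. Nefl had the same order of libraries, whereas Syt1 was highest in replicate 3 and Map2, Syp and Tubb3 in replicate 2. The part of these cells in the shares was not tested. The log2 ratio of neuronal over general sums was 2.83 ± 0.70 for ELAV (7.13-fold; SD, n = 3), 2.28 ± 0.54 for RBFOX (4.87-fold) and 0.85 ± 0.18 for CELF. The CELF ratio rests on Celf4 and on the length of Celf2, and it was -0.080 as CPM and -0.011 per coding length. The neuronal share was 27.0%, 38.5% and 26.3% for PTBP, 9.22%, 28.8% and 24.2% for KHDRBS and 9.66%, 13.9% and 7.92% for SRRM, the families in which general members made up most of the sum. Their log2 ratios were -1.20 ± 0.46, -2.08 ± 1.07 and -3.13 ± 0.46, and that of KHDRBS was -1.48 without replicate 1. The PTBP ratio was -0.11 ± 0.44 with the transcript of the longest coding sequence, within its SD, so that its general majority depends on the length used. No test was made on these sums, since they add up chosen genes.

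**Figure D3:**
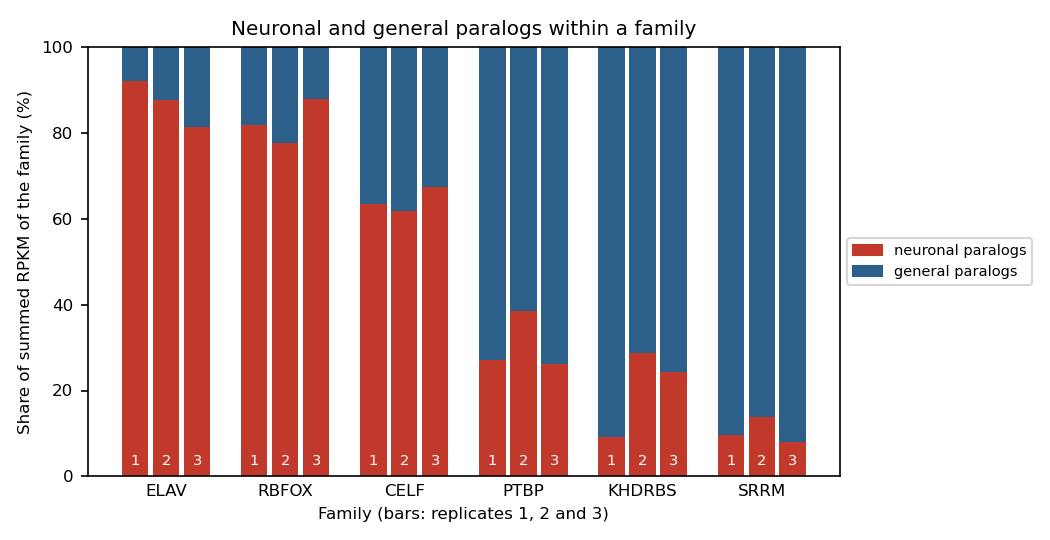
Share of the summed RPKM of a family taken by its neuronal (red) and general (blue) paralogs, in percent, with 1 bar for each of replicates 1, 2 and 3. Neuronal paralogs take over 60% in every library for ELAV, RBFOX and CELF and under 40% for PTBP, KHDRBS and SRRM.

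The fragile X family, which represses translation on ribosomes, varied widely between the libraries. Fmr1, the gene silenced in fragile X syndrome, had 32.3, 70.3 and 51.8 CPM, lowest in replicate 1. Its autosomal paralog Fxr1 had 289, 27.5 and 79.4 CPM, and Fxr2 had 51.2, 4.88 and 5.77 CPM. Fxr1 and Fxr2 were both highest in replicate 1 and lowest in replicate 2, 10.5-fold and 10.5-fold apart, whereas Fmr1 was highest in replicate 2. Fmr1 minus Fxr1 was -1.25 ± 2.24 in log2 RPKM, with -0.084 without replicate 1 and -2.31 without replicate 2. Fmr1 minus Fxr2 was 0.82 ± 2.37, with 2.18 without replicate 1 and -0.020 without replicate 2. Both differences were smaller than their SD, although Fxr1 lay above Fxr2 per length in every library.

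The CPEB genes, in contrast, kept the same order in all 3 libraries per kilobase of all exons. With the transcript of the longest coding sequence, Cpeb1 lay above Cpeb2 in replicate 2. That transcript holds 1777 bases for Cpeb1 and 6846 bases for Cpeb2. CPEB proteins bind the cytoplasmic polyadenylation element and control translation at synapses. Cpeb4 had 54.9, 73.8 and 89.2 RPKM, Cpeb3 31.2, 40.4 and 46.6 RPKM, Cpeb2 13.6, 15.4 and 12.4 RPKM and Cpeb1 5.56, 12.6 and 1.81 RPKM. Cpeb4 exceeded Cpeb3 by 0.87 ± 0.06 in log2 RPKM (SD, n = 3), Cpeb3 exceeded Cpeb2 by 1.49 ± 0.36 and Cpeb2 exceeded Cpeb1 by 1.43 ± 1.22. Cpeb1 varied the most, with 176, 467 and 59 counts, and Cpeb2 the least, with 106, 120.4 and 97.1 CPM. Cpeb3 and Cpeb4 were both lowest in replicate 1 and highest in replicate 3, at 232, 299.6 and 346 CPM and 349, 469.9 and 568 CPM.

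Qk and Msi2, which are known from glia and progenitors as well as from neurons, were among the 8 highest members per kilobase of all exons. With the transcript of the longest coding sequence, Qk was not among the 8 highest. Qk encodes quaking, a regulator of myelin mRNA that is abundant in oligodendrocytes and astrocytes, and had 593, 565 and 628 CPM, 1.11-fold between its extremes. The 5 oligodendrocyte markers used were all present but uneven, from 879 ± 153 CPM for Mbp to 13.9 ± 9.54 CPM for Mog. Astrocyte markers ran from 1342 ± 169 CPM for Slc1a2 to 5.197 ± 2.33 CPM for Aldh1l1. The part of glial RNA in the level of Qk was not tested. Msi2 had 836, 730.1 and 689 CPM, whereas its paralog Msi1, known from neural stem cells and astrocytes, had 3, 180 and 33 counts. Msi2 minus Msi1 was 6.50 ± 2.32 in log2 RPKM, higher in 3 of 3 libraries, with 5.30 without replicate 1 and 7.61 without replicate 2. Msi1 was at the limit of 3 counts in replicate 1, and the difference was 5.17 with a pseudocount of 1 and 6.93 with 0.01.

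The single members of 2 further families were moderately abundant and varied between libraries. Pum2, a Pumilio protein that represses translation through sites in 3' untranslated regions, had 200.2, 58.3 and 144 CPM, highest in replicate 1 and lowest in replicate 2. Tardbp, whose protein forms aggregates in amyotrophic lateral sclerosis, had 50.04, 186 and 167 CPM, lowest in replicate 1 and highest in replicate 2. Their extremes were 3.43-fold and 3.72-fold apart, in opposite libraries. The Tardbp counts are limited by the overlap with Masp2.

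Other RNA-binding protein genes had lower median levels by CPM than the members. Of 13 SR protein genes, which bind exonic enhancers, 12 had at least 10 CPM and 2 at least 100 CPM, with Srsf5 (109 ± 3.24 CPM; SD, n = 3), Srsf11 (105 ± 24.7 CPM) and Srsf3 (70.1 ± 34.0 CPM) highest and Srsf4 (8.36 ± 7.45 CPM) lowest. Of 26 hnRNP and PCBP genes, 25 had at least 10 CPM and 9 at least 100 CPM, with Hnrnpu (216 ± 47.7 CPM), Hnrnpa2b1 (213 ± 54.0 CPM) and Hnrnph1 (190.4 ± 55.7 CPM) highest and Raly (1.95 ± 0.803 CPM) lowest. Of 29 other regulators of mRNA, 25 had at least 10 CPM and 10 at least 100 CPM. The fragile X partner Cyfip2 (1759.5 ± 229.8 CPM), the stress granule gene G3bp2 (516 ± 113 CPM) and Larp1 (370.2 ± 28.7 CPM) led that list, and Igf2bp1, a gene of embryonic tissue, had 0 counts in every library. The median levels were 7.40 ± 0.15 for the members, 5.05 ± 0.052 for SR proteins, 5.87 ± 0.26 for hnRNP and PCBP genes and 6.16 ± 0.031 for the other regulators on the log2(CPM + 1) scale. These medians are not scaled by length and were not tested against each other. Members and lists were chosen with earlier results of these data known, which limits the comparison.

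Most members varied between libraries beyond counting error, as most genes did. The Poisson chi-square test of the counts, with Benjamini-Hochberg adjustment over all 11168 genes tested, gave an adjusted p under 0.05 for 37 of the 39 members tested (94.9%), against 96.5% of all genes. The members not called were Celf2 (adjusted p = 0.449) and Rbfox1 (adjusted p = 0.0736), and Mbnl3 had too few counts to be tested. The quasi-likelihood dispersion of edgeR, which asks whether a gene varies more than others of its level given a common biological coefficient of variation of 0.832, called 0 members and 0% of genes at an adjusted p under 0.05. At an unadjusted p under 0.05 it called 1 member, Fxr1 (unadjusted p = 0.00718, adjusted p = 0.956), against 4.27% of genes. The power of the quasi-likelihood test at this variation was not examined. In these libraries the highest was at least 2-fold above the lowest in 19 of 39 members (48.7%), against 71.0% of genes, and the median fold was 1.86 in members and 3.22 in all genes. Members are more abundant than most genes, and the fold was smaller in abundant genes. Among genes of at least 100 CPM, a comparison chosen after seeing the data, 9 of 27 members (33.3%) reached 2-fold, against 28.5% of genes. The count of 19 fell to 9 without replicate 1, to 9 without replicate 2 and to 12 without replicate 3, while the share of all genes was 39.7%, 43.6% and 43.1%.

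**Figure D4:**
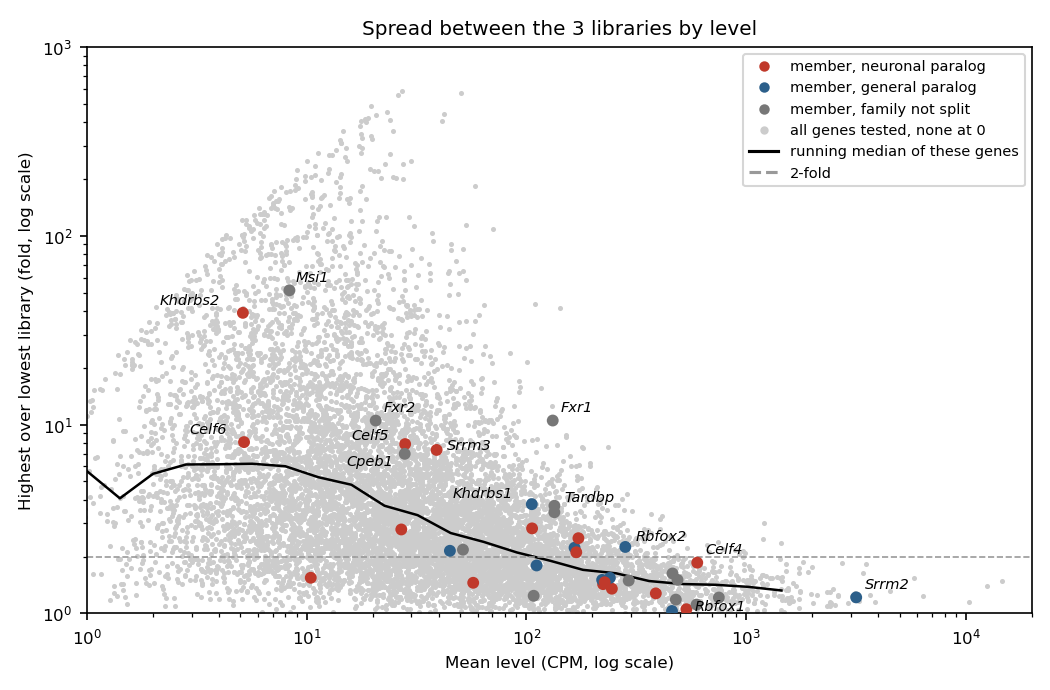
Highest over lowest library (fold, log axis) against the mean level (CPM, log axis) for the 39 members tested and, in pale grey, all tested genes that had no library at 0; the black line is the running median of those genes and the dashed line marks 2-fold. Msi1, Khdrbs2 and Fxr1 lie far above the line, while Rbfox1 and Celf2, beneath it, lie near 1.

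No library stood apart for the members as a group. Replicate 1 held the highest level of 16 members and the lowest of 15, replicate 2 the highest of 15 and the lowest of 12, and replicate 3 the highest of 9 and the lowest of 13. The summed level of all 40 members was 11219, 11102 and 11654 CPM in replicates 1, 2 and 3. Members low in replicate 2 and high in replicate 1 included Fxr1, Fxr2, Khdrbs1, Khdrbs2, Pum2, Nova1, Nova2, Celf5 and Celf6.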

How the data were processed

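Ribosome-bound RNA was immunopurified with anti-EGFP antibodies, per the labels' protocols. The authors deposited unnormalized read counts for 32531 gene symbols, in a table for each library. STAR 2.0.0e, HTSeq and the build mm10 are named in the submitters' processing notes, while annotation and strand setting are not given in the sources used. HTSeq summary rows and a row named unknown were left out of library sizes and tests. Reads without a feature were 50.2%, 44.1% and 44.7% of counted reads in replicates 1, 2 and 3, and ambiguous reads 1.77%, 1.94% and 1.88%.

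From the counts, CPM used library sizes scaled by TMM (edgeR 4.0.16, R 4.3.3), and RPKM used all exon bases of GENCODE M21, an annotation of that build in which 23161 of the symbols were found. Paralogs were compared as log2(RPKM + 0.1) within each library, with mean ± SD over 3 libraries and an exact sign-flip permutation test. Genes that reached 10 counts in 2 or more libraries were tested for spread between libraries. The Poisson chi-square test and the quasi-likelihood dispersion of edgeR were used, both with Benjamini-Hochberg adjustment. Both were run on simulated data, the Poisson test under Poisson noise. The simulated dispersion for the quasi-likelihood test was lower than that of these libraries, so its power here is not known. Shared stretches of 50 bases were exact matches, on either strand, of a member's coding transcript to GENCODE transcripts of other genes. All 40 members are named; of the other RNA-binding lists, the 3 highest genes and the lowest by CPM are, and marker genes are examples chosen after their values were seen. Members, classes and lists were chosen with earlier results of these data known. Alternatives were other lengths, pseudocounts and filters, DESeq2 1.42.0 size factors and leaving out each library. One marker of the lists is not reported here. The limits at 0 counts cover counting error only.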

Additional observations from a re-analysis of the deposited data

How the results depend on the processing

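Of 252 values for the 28 pairs under 9 alternatives, 238 kept their sign and 14, in 7 pairs, did not. With the transcript of the longest coding sequence in place of all exons, the sign turned for Elavl2 minus Elavl1 (0.68), Ptbp2 minus Ptbp3 (0.80), Nova2 minus Nova1 (-0.23) and Celf2 minus Celf1 (0.91), and the neuronal member was higher in every library in 8 of 21 pairs, against 5 with all exons. Per coding length it turned for Rbfox3 minus Rbfox2 (-0.011), Srrm4 minus Srrm1 (0.53), Nova2 minus Nova1 (-0.13) and Celf2 minus Celf1 (1.04), and as CPM for Rbfox3 minus Rbfox2 (-0.27), Nova2 minus Nova1 (-0.00050) and Celf2 minus Celf1 (1.08). Leaving out each library in turn gave -0.085 to 0.37 for Rbfox3 minus Rbfox2, -0.025 to 0.11 for Nova2 minus Nova1 and -0.020 to 2.18 for Fmr1 minus Fxr2. The neuronal member was higher in every library in 4 pairs as CPM and in 5 to 6 without 1 library. These turns follow from the lengths themselves or from fewer libraries.

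For the family sums as log2 ratios, CPM gave 2.13 for ELAV, 1.503 for RBFOX, -0.080 for CELF, -0.68 for PTBP and -3.69 for SRRM. The transcript of the longest coding sequence gave 3.54 for RBFOX and -0.11 for PTBP, and coding length gave 1.93 for ELAV, 1.66 for RBFOX, -0.011 for CELF, -0.62 for PTBP and -1.74 for SRRM. As RPKM, 2 members had at least 100 and the median log2(RPKM + 1) was 4.35. At 3-fold, 11 members differed between libraries, against 52.8% of genes, 9 did at 2-fold among genes of at least 100 CPM, and 9 to 12 without 1 library. The quasi-likelihood dispersion called 0 members. DESeq2 size factors changed no sign of a pair and no count of members. No paired analysis was possible because all libraries belong to 1 group. Depth limits Mbnl3, Khdrbs2 and Msi1, which had 3 or fewer counts in some library.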
